A study of Mus musculus with 2 samples.

Results

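Primitive erythroid cells were taken from single-cell RNA sequencing of whole mouse embryonic hearts at E11.5, as the cells whose RNA was mostly globin. They were chosen by their measured globin share, which had to reach 50% of a barcode's UMIs over 7 globin genes (Hbb-y, Hbb-bh1, Hbb-bt, Hbb-bs, Hba-x, Hba-a1 and Hba-a2). A barcode also needed 500 genes or more and no more than 10% of its UMIs from mitochondrial genes. UMIs are molecular barcodes that count RNA molecules. The rule gave 7819 cells, of 21982 cells that passed the gene and mitochondrial limits and 27999 barcodes in all. Because globin share chose the cells, their globin content is described here and not tested.

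The data came from 2 libraries, 1 per genotype. The control embryos were Hand2fx/+ R26RmTmG/wt, with 1 floxed Hand2 allele and no Cre. The H2CKO embryos were Nfatc1Cre/wt Hand2fx/fx R26RmTmG/wt, with both Hand2 alleles floxed. The mTmG reporter, of which every embryo had 1 copy, switches from Tomato to GFP where Cre has been active. Nfatc1-Cre acts in the endocardium, the inner lining of the heart, so blood cells were not its stated target. How many embryos went into a library, and of which sex, is not given in the sources used here. With 1 library per group no difference below has a replicate check, no p-value is given, and genotype, embryos, preparation and sequencing run cannot be told apart. All intervals are 95% intervals and cover counting error only.

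Primitive erythroid cells are the first red blood cells of the embryo. They arise in the yolk sac, enter the circulation while still nucleated, and go on dividing and filling with haemoglobin in the bloodstream as one wave. In the mouse they express the embryonic globins Hbb-y (εy), Hbb-bh1 (βh1) and Hba-x (ζ) together with the adult α-globins Hba-a1 and Hba-a2. As they mature, Hbb-bh1 gives way to Hbb-y and Hba-x gives way to the adult α-globins. Definitive red cells, which come later from the fetal liver, use mainly the adult β-globins Hbb-bt and Hbb-bs.

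The control matrix held 14114 barcodes and 195825720 UMIs, and the H2CKO matrix 13885 barcodes and 201477256 UMIs. The erythroid cells carried 26.7% of the control UMIs and 35.0% of the H2CKO UMIs. Their median depth was 18503 UMIs and 1826 genes in the control, and 13289 UMIs and 1245 genes in H2CKO. Cells under 10% globin, a comparison set chosen after the data were seen and called low-globin cells below, numbered 6682 and 6455, with median depths of 14797 and 13555 UMIs. The 2 libraries shared 57 barcodes, of which 3 were erythroid in both. No erythroid cell was among the 5408 and 6232 barcodes for which the authors deposited embedding coordinates. The highest globin share among those barcodes was 3.55% and 5.86%.

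The promoters of the 3 marker genes are shown because they are the regulatory stretches next to the transcripts that define these cells. Hbb-y and Hba-x are the most abundant β-like and α-like globins here, and Alas2 makes the first enzyme of haem synthesis in red cells. Each window ends at the base before the RefSeq start on GRCm38.p6 and is read 5′ to 3′ on the gene's own strand. Capitals mark matches to AGATAA or TGATAA, letters bound by GATA factors, and to CCACCC, letters bound by KLF1, searched on both strands. The windows lie at chr7:103853208-103853382 on the minus strand for Hbb-y, chr11:32276425-32276599 on the plus strand for Hba-x and chrX:150547242-150547416 on the plus strand for Alas2.
Hbb-y: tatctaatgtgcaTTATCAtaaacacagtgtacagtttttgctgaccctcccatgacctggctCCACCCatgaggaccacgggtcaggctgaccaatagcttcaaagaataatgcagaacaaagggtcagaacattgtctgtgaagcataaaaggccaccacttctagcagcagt
Hba-x: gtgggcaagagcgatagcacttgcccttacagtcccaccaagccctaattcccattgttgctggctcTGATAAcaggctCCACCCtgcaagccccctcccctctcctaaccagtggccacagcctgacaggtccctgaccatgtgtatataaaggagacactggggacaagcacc
Alas2: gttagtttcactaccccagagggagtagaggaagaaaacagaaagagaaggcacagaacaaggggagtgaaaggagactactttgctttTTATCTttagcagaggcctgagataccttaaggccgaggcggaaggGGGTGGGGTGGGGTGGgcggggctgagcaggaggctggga

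All 3 windows held both kinds of match at this length, and the GATA match of Hbb-y lay near the far end of its window. The GATA match began 162 bases before the start in Hbb-y, 108 in Hba-x and 86 in Alas2. The CCACCC match lay at 112 bases in Hbb-y and 96 in Hba-x. In Alas2, 3 overlapping matches on the other strand lay at 40, 35 and 30 bases. Over 32851 such windows of 27025 genes, 11.4% held a GATA match, 22.1% a CCACCC match and 1.82% both. Both were held by 1 of 13 windows of haem synthesis genes, 3 of 18 of membrane and skeleton genes and 2 of 28 of late maturation genes. The same was true of 1 of 16 windows of cardiomyocyte markers, 1 of 26 of G2/M genes and 0 of 23 of S phase genes. A match is a description of letters, not a site.

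The rule set the summed globin share, not how the 7 globins divided it, and these shares are a description. In control cells Hbb-y made up 34.3% of all UMIs, Hba-x 18.0%, Hba-a1 4.88%, Hbb-bh1 3.72%, Hba-a2 2.81%, Hbb-bt 1.74% and Hbb-bs 0.436%. In H2CKO cells Hbb-y made up 39.8%, Hba-x 15.2%, Hba-a1 6.19%, Hba-a2 3.07%, Hbb-bh1 2.33%, Hbb-bt 1.10% and Hbb-bs 0.940%. Low-globin cells held Hbb-y at 0.296% and 0.303% of their UMIs. Hbb-y was over 50% of the β-like globin in every erythroid cell, and the adult β-globins passed 50% in 0 of 2729 control and 0 of 5090 H2CKO cells, their highest share being 16.3% and 23.6%. By this measure no cell had the globin makeup of a definitive red cell. Hbb-bt and Hbb-bs are near-identical copies, as are Hba-a1 and Hba-a2, so the split of reads within each pair is uncertain.

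The label was checked on erythroid genes other than globins. Levels are given as UMIs per 1000000 non-globin UMIs of the summed cells (CPM), since the rule fixes the globin share. The 6 measured non-globin erythroid markers summed to 6405 CPM in control and 5506 CPM in H2CKO erythroid cells, against 27.1 and 22.2 CPM in low-globin cells. Among them were Alas2, Slc4a1 (the band 3 anion exchanger), Klf1 and Gata1 (erythroid transcription factors) and Hemgn (a nuclear protein of red cell precursors). At least 1 Alas2 UMI was found in 99.4% and 99.1% of the erythroid cells, against 7.08% and 6.37% of low-globin cells. Ahsp, also listed, was not analysed here.

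Markers of other cell types were present at levels below or near those of low-globin cells, and in H2CKO the cardiomyocyte markers summed to nearly as much as the erythroid ones. The 12 cardiomyocyte markers summed to 4164 and 5055 CPM in erythroid cells, against 41694 and 55614 CPM in low-globin cells. The 10 endothelial markers summed to 15.6 and 19.8 CPM (195 and 247 in low-globin cells), the 8 mesenchymal markers to 87.5 and 48.6 CPM (1605 and 467), and the 6 epicardial markers to 16.2 and 6.24 CPM (391 and 98.6). White blood cell markers (9 genes) summed to 2.69 and 6.83 CPM (41.4 and 82.4) and megakaryocyte markers (6 genes) to 14.8 and 16.8 CPM (31.1 and 18.2). In the control 1 white blood cell marker and 1 megakaryocyte marker were at 0, and in H2CKO 1 megakaryocyte marker. Erythroid cells with at least 2% of non-globin UMIs from these lists numbered 27 of 2729 and 38 of 5090.

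**Figure D1:**
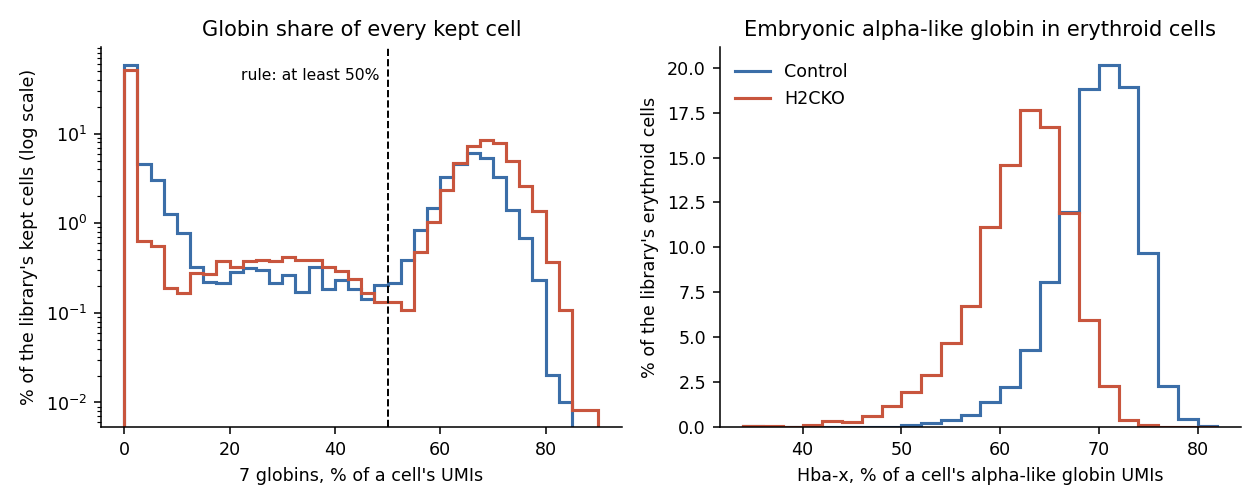
Left, percent of kept cells (log axis) by globin share of UMIs in percent for each library, with the 50% limit dashed. Right, percent of erythroid cells by Hba-x share of α-like globin; the medians are 70.2% in the control and 62.6% in H2CKO, and the distributions overlap.

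Few cells lay near the limit. Between 45 and 50% globin there were 34 control and 36 H2CKO cells, with medians of 3408 and 3027 genes. Between 50 and 55% there were 59 and 29 cells, with medians of 1504 and 2015 genes. In the globin shares plotted for all kept cells, the erythroid cells stood as a separate high group with medians of 66.3% (range 50.1 to 82.8%) and 68.9% (50.0 to 88.5%).

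The most abundant non-globin transcripts outside the ribosomal and mitochondrial genes included those of iron storage and defence against oxidants. Fth1, the heavy chain of the iron store ferritin, stood at 34897 CPM in the control and 37574 CPM in H2CKO. Ftl1, the ferritin light chain, stood at 9804 and 15994 CPM. Prdx2, a peroxidase of red cells, had 9869 and 11266 CPM, and Gpx1, the glutathione peroxidase, 8651 and 8463 CPM. In low-globin cells Fth1 was at 1446 and 1465 CPM and Gpx1 at 274 and 263 CPM, both far below the erythroid level. Counts of a 3′ assay are per molecule and were not divided by gene length.

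Other abundant transcripts were partly shared with the rest of the heart. Car2, the carbonic anhydrase that hydrates CO2, had 4346 and 5012 CPM against 26.5 and 33.2 CPM in low-globin cells. Mt1, a metal-binding metallothionein, had 5910 and 4133 CPM against 98.2 and 98.4 CPM. Nudt4 had 3863 and 2529 CPM, and Mgst3, a membrane glutathione transferase, 2938 and 3254 CPM. Eef1a1, a translation elongation factor of all cells, was by contrast at 5979 and 6722 CPM here and at 5324 and 6470 CPM in low-globin cells.

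The haem pathway was expressed along its whole length, with all 15 listed genes measured. Alas2, its entry enzyme, had 1559 CPM in the control and 1670 CPM in H2CKO. Tmem14c, a mitochondrial porphyrin carrier, had 1775 and 1947 CPM, and Slc25a37 (mitoferrin), which brings iron into mitochondria, 2125 and 1457 CPM. Of the iron genes, Blvrb, biliverdin reductase B, had 2631 and 3403 CPM.

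Membrane and regulatory genes were at lower levels. Slc4a1 had 1173 and 715 CPM, and Rhd, the Rh blood group protein, 865 and 1256 CPM. Among transcription factors Hemgn led with 1415 and 1120 CPM, followed by Klf1 (307 and 474 CPM) and Tal1 (268 and 174 CPM), while Gata1 had 110 and 86.6 CPM. Bcl11a had 2.24 and 1.86 CPM and Sox6 3.09 and 2.35 CPM; both repress embryonic β-like globins in definitive cells, and both were higher in low-globin cells (31.2 and 23.2 CPM, and 38.3 and 15.3 CPM). Epor, the erythropoietin receptor, had 145 and 178 CPM. Kit, the stem cell factor receptor of early progenitors, had 0.224 and 0.0905 CPM, below the 2.74 and 2.11 CPM of low-globin cells. Those levels were 4 and 2 UMIs in all.

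Cells were then ordered by globin share, as a description of maturation within the erythroid cells. The control had 287 cells at 50 to 60% globin, 1890 at 60 to 70%, 549 at 70 to 80% and 3 above 80%. H2CKO had 213, 2777, 2040 and 60 cells. The 3 control cells above 80% are too few to read. Non-globin depth fell along this order, with medians of 7490, 6696 and 4292 UMIs in the control and 5222, 4778 and 3287 UMIs in H2CKO. Since a higher globin share leaves less non-globin RNA by construction, the CPM of a gene can rise without more molecules of it.

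From the lowest to the 70 to 80% group, late maturation genes gained share and S phase genes lost it in both libraries. Across 3789 genes tested in both, 27 were at least 2-fold higher (0.713% of those tested) and 69 at least 2-fold lower (1.82%) in the 70 to 80% group. Of 22 late maturation genes 20 had a higher level in both libraries and 4 passed 2-fold, with median log2 differences of 0.84 in the control and 0.62 in H2CKO. Of 21 S phase genes 20 were lower in both and 4 passed 2-fold, with medians of −1.22 and −0.79. Of all 3789 tested genes 1021 were higher and 2006 lower in both libraries. The medians over all tested genes were −0.11 and −0.18. With genes scaled to all UMIs, globins included, 0 genes were at least 2-fold higher in both libraries and 260 at least 2-fold lower, with the same minimum CPM and pseudocount.

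The 6 genes named for gaining most share, at 50 CPM or more in the higher group of each library, had varied roles. Tcp11l2 (7.08 to 49.3 and 7.21 to 22.1 CPM) and Nfix (21.2 to 83.9 and 18.9 to 48.0 CPM), under that limit, gained as much. Ubap1, a part of the ESCRT-I sorting complex, went from 24.1 CPM through 48.6 to 110 CPM over the 3 groups of the control, and from 28.8 through 42.7 to 73.5 CPM in H2CKO. Dyrk3, a kinase found mainly in erythroid cells and testis, went from 32.1 to 89.0 CPM in the control and from 27.0 to 75.8 CPM in H2CKO. The others by the same rule were Rec114, Ypel5, Tmcc2 and Slfn14, the last an endoribonuclease of red cell and platelet precursors, which went from 47.7 to 159 CPM in the control and from 37.0 to 79.98 CPM in H2CKO. Of the late maturation list, named after their values were seen, Ube2o, a ubiquitin ligase that clears ribosomal proteins in reticulocytes, went from 36.8 to 107 CPM and from 17.1 to 44.3 CPM. Bcl2l1 (Bcl-xL, a survival factor) went from 54.3 to 129 CPM and from 37.9 to 88.7 CPM, and Xpo7, a nuclear exporter, from 50.5 to 149 CPM and from 19.8 to 46.9 CPM.

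Of the 6 genes named for losing most share, at 50 CPM or more in the higher group of each library, 4 were mitochondrial, 1 replicative and 1 cardiac. Dtl, under that limit, lost as much (57.1 to 14.3 and 41.5 to 8.61 CPM). mt-Nd1, a subunit of respiratory complex I, went from 2487 to 566 CPM in the control and from 1973 to 549 CPM in H2CKO. mt-Nd2 went from 1456 to 279 CPM and from 1996 to 500.2 CPM, with mt-Nd3 and mt-Nd4l also in the lowest 6. Mcm3, part of the replicative helicase, went from 117 to 29.4 CPM and from 102 to 31.4 CPM. Named after their values were seen, its partners Mcm4 (108 to 31.4 and 45.1 to 16.7 CPM) and Mcm6 (158 to 64.0 and 128 to 45.3 CPM) and the licensing factors Cdc6 (51.5 to 14.3 and 31.5 to 11.52 CPM) and Cdt1 (35.9 to 9.54 and 25.2 to 8.19 CPM) did the same. Ncl, nucleolin, also named after its value was seen, went from 885 to 402 CPM and from 505 to 242 CPM.

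Ttn, the giant sarcomere protein titin, went from 1532 CPM at 50 to 60% through 181 to 219 CPM in the control, and from 248 through 60.7 to 64.0 CPM in H2CKO. The 12 cardiomyocyte markers together had 6345, 3688 and 4806 CPM in the control and 6581, 4485 and 5832 CPM in H2CKO. The part of these markers in the changes from the lowest group was not tested. Without the cells that had at least 2% of other cell types' markers, 24 genes were higher and 61 lower. Starting from the 60 to 70% group instead left 1 higher and 6 lower.

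**Figure D2:**
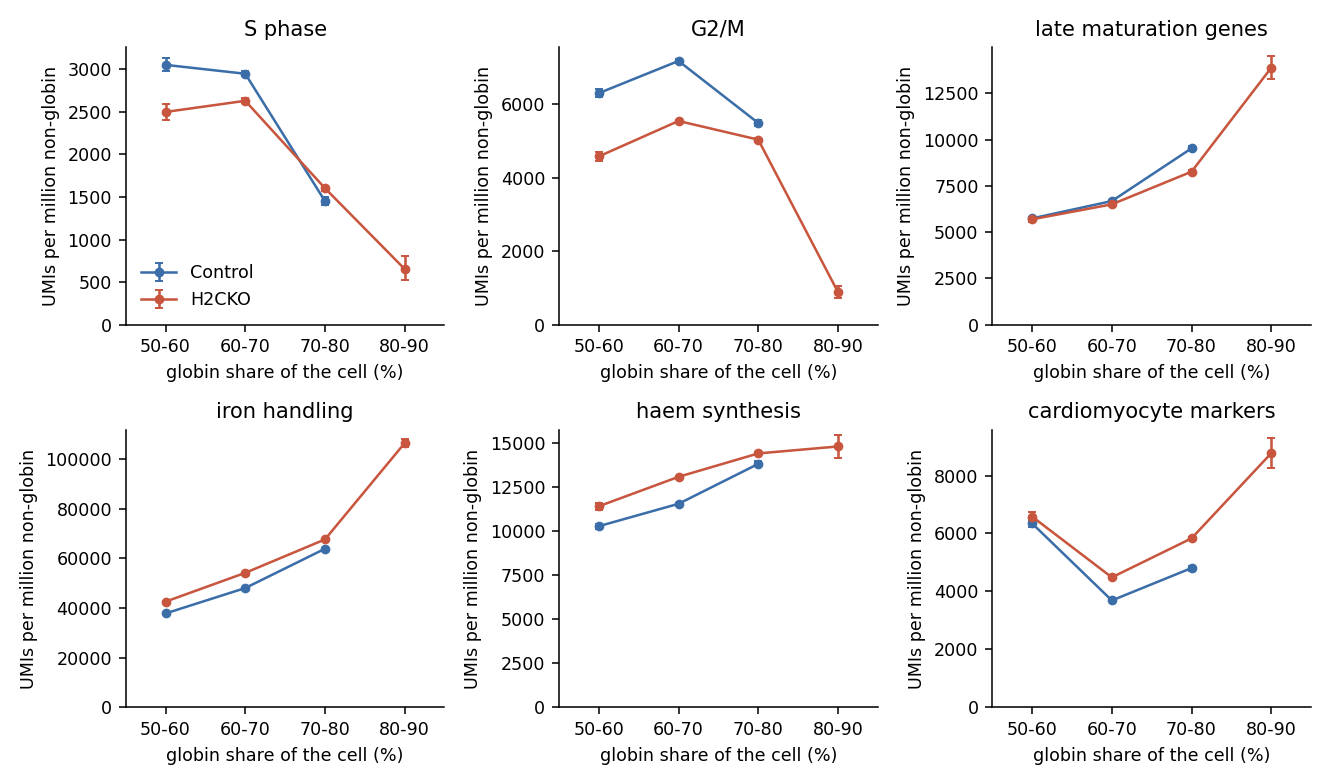
Level of 6 gene lists (CPM of non-globin UMIs, 95% Poisson intervals) by group of globin share in percent for each library, in groups of at least 20 cells. S phase is lowest and iron handling highest in the groups with most globin, in both libraries.

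Summed lists and molecules per cell showed different sides of the same order. Late maturation genes had 5746, 6683 and 9532 CPM in the control and 5698, 6506 and 8270 CPM in H2CKO. Counted as UMIs per cell they were level, at 42.4, 46.6 and 43.7 in the control and 29.7, 32.0 and 29.2 in H2CKO. Iron handling genes had 37798, 48025 and 63839 CPM in the control and 42543, 54145 and 67596 CPM in H2CKO. S phase genes were lower at high globin on both scales, at 22.5, 20.6 and 6.66 UMIs per cell in the control and 13.0, 12.9 and 5.66 in H2CKO. The 60 H2CKO cells above 80% had 1.43 S phase and 1.95 G2/M UMIs per cell, and 655 and 891 CPM.

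Other groups moved less along globin share. Of 22 membrane and skeleton genes 18 were higher in both libraries, of 14 haem genes 10, and of 9 redox genes 7, none of them past 2-fold, where 1021 of all 3789 were higher. Of 26 G2/M genes 16 were lower in both, none past 2-fold, and of 13 glycolysis genes 8 were lower, shares near the 2006 of 3789 over all tested genes. Summed G2/M genes had 6304, 7179 and 5490 CPM in the control and 4582, 5546 and 5037 CPM in H2CKO, so the middle group was the highest in both libraries.

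The embryonic α-globin gave a second order of the cells. Hba-x made up a median 70.2% of α-like globin in control cells (5th to 95th percentile 61.7 to 75.3%) and 62.6% in H2CKO cells (52.3 to 69.0%). The adult α-globins exceeded Hba-x in 3 control and 143 H2CKO cells. Within each library, cells with less Hba-x had more globin and less S phase RNA. From the group with most Hba-x to the group with least, of 5 equal groups of cells, median globin share went from 62.9 to 69.6% in the control and from 64.9 to 73.8% in H2CKO. S phase genes went from 3221 to 1726 CPM and from 2796 to 1441 CPM. Late maturation genes went from 6090 to 8622 CPM and from 6272 to 8907 CPM.

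Hbb-bh1 ran alongside Hba-x within each library. Its median share of β-like globin went from 11.03% in the group with most Hba-x to 6.70% in the group with least in the control, and from 6.39 to 3.89% in H2CKO. The G2/M list did not run in 1 direction over these groups, at 6585 and 6781 CPM at the 2 ends in the control and 4977 and 4584 CPM in H2CKO. Cardiomyocyte markers were higher at low Hba-x, at 5492 against 3706 CPM and 6695 against 4262 CPM. Their part in the trends was not tested. These groups and list levels come from the same cells and are a description.

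Most erythroid cells carried cell-cycle transcripts. Each cell was thinned to 1000 non-globin UMIs, which left out 2 control and 13 H2CKO cells, and UMIs of 23 S phase and 27 G2/M genes were counted. At least 5 such UMIs, a limit chosen after the data were seen, were found in 72.4% (70.7 to 74.1%) of the control and 62.1% (60.8 to 63.5%) of the H2CKO cells. The same count in low-globin cells gave 44.6 and 45.6%. None of these transcripts was found in 4.88% (4.10 to 5.75%) and 7.03% (6.34 to 7.77%) of erythroid cells. In erythroid cells the median was 2 S phase and 5 G2/M UMIs in the control and 1 and 3 in H2CKO.

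Cells without cell-cycle transcripts had more globin. In the control the median globin share was 71.9% in cells at 0 and 65.4% in cells at 5 or more, with medians of 4183 and 6887 non-globin UMIs before thinning. In H2CKO it was 73.5% and 67.8%, with 2906 and 4806 non-globin UMIs. By globin share, cells at 5 or more were 83.97, 80.7 and 38.1% of the 3 control groups and 70.8, 74.9 and 45.6% of the 3 H2CKO groups. Cells at 0 went from 0.697 to 16.1% in the control and from 1.44 to 14.3% in H2CKO. At least 3 S phase and at least 3 G2/M UMIs together were found in 30.9% of control and 23.1% of H2CKO cells, and in 11.8 and 12.2% of low-globin cells.

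**Figure D3:**
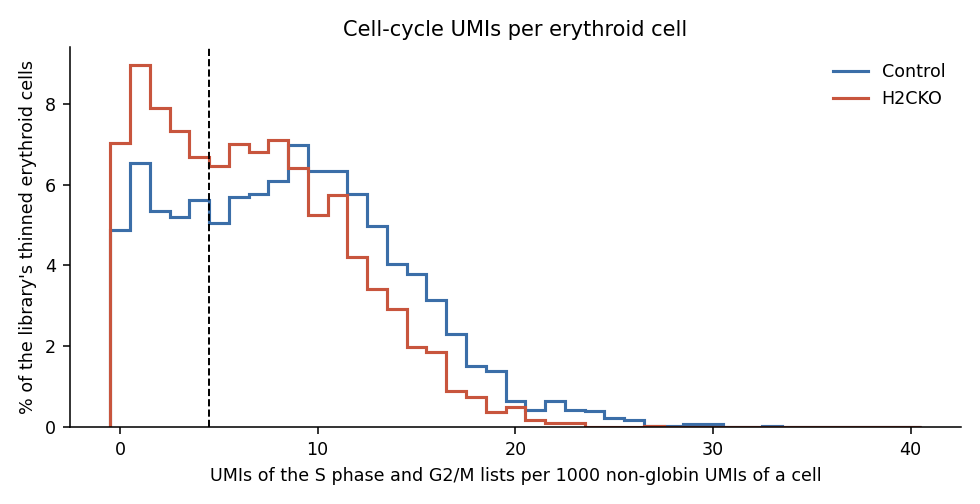
Percent of erythroid cells by number of S phase and G2/M UMIs per 1000 non-globin UMIs in each library, with a dashed line between 4 and 5. The H2CKO distribution lies lower, with 62.1% of cells at 5 or more against 72.4% in the control.

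The share of cells with at least 5 cell-cycle UMIs, a measure of these transcripts and not of division, differed between libraries by −10.3 percentage points (−12.4 to −8.12). It changed sign in cells with at least 70% globin, to 38.8% in the control and 44.3% in H2CKO, and under a filter of 1500 genes or more and no more than 5% mitochondrial UMIs, to 85.2 and 92.1%. The latter filter kept 71.5% of control but 24.0% of H2CKO erythroid cells. Without Mki67, the proliferation marker Ki-67, the shares were 66.8 and 60.5%.

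Erythroid cells made up 27.7% (26.8 to 28.6%) of what was kept from the control and 41.9% (41.04 to 42.8%) of what was kept from H2CKO, a difference of 14.2 percentage points (12.9 to 15.4). Under the filter on 1500 genes and 5% mitochondrial UMIs the shares were 28.7 and 34.3%, a difference of 5.61 points. Mitochondrial UMIs differed little in erythroid cells, with medians of 0.557 and 0.626%, but were 3.15 and 6.09% in low-globin cells. Their part in the share of cells was not tested.

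In globin makeup, H2CKO cells had a larger share of the forms that follow in the known order. The medians of the Hba-x share of α-like globin given above differed by −7.59 percentage points (H2CKO minus control). Hbb-bh1 had medians of 8.97 and 5.23% of β-like globin, a difference of −3.74 points. Hbb-y went from 85.5 to 90.3% of β-like globin, and the adult β-globins from 5.39 to 4.27%. Over 5 other choices of cells the Hba-x difference stayed between −7.62 and −6.30 points and the Hbb-bh1 difference between −3.76 and −2.82 points. Among cells of 60 to 70% globin alone the medians were 70.8 and 64.2% for Hba-x and 9.35 and 5.88% for Hbb-bh1. α-like globin as a whole was 38.8 and 35.6% of all globin.

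Between the libraries 4304 non-globin genes were tested in erythroid cells. Of these 20 were at least 2-fold higher in H2CKO (0.465%) and 372 at least 2-fold lower (8.64%), with a median log2 ratio of −0.21 over all tested genes. Centred on that median, 31 were higher and 153 lower. The ratio followed gene length: over 4 equal groups of genes by span the median went from 0.070 in the shortest through −0.080 and −0.37 to −0.72 in the longest, and 233 of the 372 lower genes were in the longest group. With the trend on transcript length taken out, a choice made after the data were seen, 20 were higher and 66 lower. Median depth was also lower in H2CKO. Their part in the ratios was not tested, and whether both libraries were processed alike is not given in the sources used here.

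**Figure D4:**
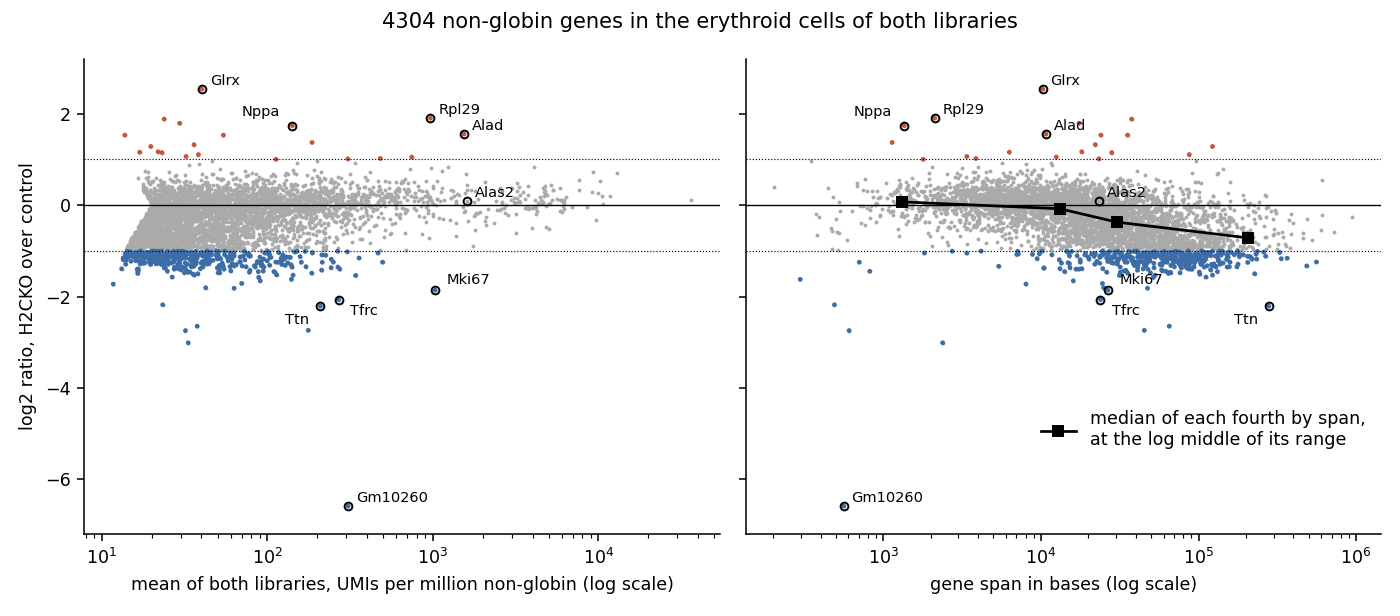
Log2 ratio of H2CKO over control for 4304 non-globin genes in erythroid cells against mean level (left) and gene span in bases (right), both on log axes, with 20 genes past 2-fold higher in red, 372 past 2-fold lower in blue and named genes circled. The median of each of the 4 equal groups by span, in black, falls from 0.070 to −0.72.

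Much of the same pattern was present in low-globin cells. Of the 20 higher genes 13 were tested there, 12 had the same sign and 4 passed 2-fold, where 0.387% of 6200 genes did. Of the 372 lower genes 347 were tested, 345 had the same sign and 34 passed 2-fold, where 3.02% did. Their median log2 ratio was −1.17 in erythroid and −0.69 in low-globin cells. A log2 ratio further out by at least 1 in erythroid cells was found for 3 of the higher and 14 of the lower genes.

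The highest ratio of the genes named by rule was that of Glrx, and a haem enzyme was among the next. Glrx (glutaredoxin, ENSMUSG00000021591, chr13:75839868-75850154), which reduces protein disulfides with glutathione, went from 8.30 to 72.2 CPM, 8.70-fold higher (7.34 to 10.4). In low-globin cells it was 31.6 and 50.2 CPM. Alad (ENSMUSG00000028393, chr4:62509169-62519918), the second enzyme of haem synthesis, went from 778 to 2295 CPM, 2.95-fold higher (2.89 to 3.01), and from 40.2 to 78.4 CPM in low-globin cells. Alad was the only haem gene past 2-fold higher and kept that call in 14 of 14 alternatives.

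The other higher genes by the naming rule had mixed functions. Rpl29, a ribosomal protein, went from 405 to 1527 CPM and did the same in low-globin cells (327 to 1209 CPM). Nppa, the atrial natriuretic peptide of cardiomyocytes, went from 62.5 to 221 CPM, and from 529 to 1636 CPM in low-globin cells. Hist1h4d, a histone H4 gene with near-identical copies, went from 102 to 270 CPM, and Traip, a ubiquitin ligase of DNA replication, from 18.5 to 53.7 CPM. Mns1 went from 25.5 to 83.0 CPM and Cep290, a protein of the cilium base, from 22.5 to 54.2 CPM.

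Tfrc and Mki67 were the erythroid and cell-cycle genes with the largest decreases. Tfrc (ENSMUSG00000022797, chr16:32608920-32632794), the transferrin receptor through which red cell precursors take up iron, went from 438 to 101 CPM, a ratio of 0.230 (0.220 to 0.241). At least 1 UMI of it was found in 84.4 and 32.2% of erythroid cells, and in 44.1 and 30.6% of low-globin cells, at the median depths given above. In low-globin cells its level was 63.0 and 28.1 CPM. Mki67 (ENSMUSG00000031004, chr7:135689784-135716361) went from 1620 to 443 CPM, a ratio of 0.273 (0.267 to 0.280), and from 176 to 125 CPM in low-globin cells.

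Other low ratios belonged to genes that were also lower in low-globin cells. Gm10260, annotated as a retrogene copy of Rps18, went from 613 to 1.45 CPM, and from 388 to 0.690 CPM in low-globin cells, while Rps18 itself went from 2928 to 5209 CPM and from 1853 to 3175 CPM. Reads of such copies can be split differently, so both are uncertain. Eif3j2 (63.1 to 3.44 CPM) and Gm11361 (59.4 to 4.62 CPM) were also low in low-globin cells of H2CKO, at 2.07 and 2.72 CPM. BC004004 went from 311 to 42.4 CPM and the splicing factor Cwc22 from 68.6 to 6.74 CPM, against 169 to 42.1 and 120 to 14.3 CPM in low-globin cells. Ttn went from 347 to 71.1 CPM, and from 4941 to 3347 CPM in low-globin cells.

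The iron, membrane and transcription factor lists each had 1 or 2 genes past 2-fold lower, where 8.64% of all tested genes were, and 0 higher. Calls of 2 of 22 membrane genes and 1 of 13 transcription factors are near that background. The 11 tested genes of the iron handling list had a median log2 ratio of −0.38, which turned to 0.11 at 100 CPM or more and to 0.17 with the length trend and the median taken out, with Tfrc and Ireb2 (28.5 to 10.6 CPM), a sensor of iron, past 2-fold lower. The sum of the list nevertheless went from 49065 to 58256 CPM, since Ftl1 and Fth1 make up most of it. The 22 membrane and skeleton genes had 2 past 2-fold lower and a median of −0.49, which was −0.055 with the length trend and the median taken out. Among the 2 was Epb41 (386 to 148 CPM), which encodes a protein of the membrane skeleton. Epb41 lost that call with the length trend taken out, at a log2 ratio of −0.67. The 13 transcription factors had a median of −0.41, or −0.16 with the length trend and the median taken out, and 1 past 2-fold lower, Klf3 (140 to 64.5 CPM).

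The 15 haem genes had a median of 0.10, with Alad past 2-fold higher. Over all tested genes 0.465% were past 2-fold higher and 8.64% lower, the background for the calls in these lists. The 13 glycolysis genes had a median of 0.30, with Gapdh at 843 and 1424 CPM and Hk1 (hexokinase 1, 70.8 to 28.6 CPM) past 2-fold lower. In low-globin cells 12 of these genes had a median of 0.37. The 22 late maturation genes had a median of −0.10 (0.10 when centred on the median tested gene), with Rnf10 (510 to 172 CPM) and Yod1 (56.0 to 23.8 CPM), which act in ubiquitin turnover, past 2-fold lower. Of 6 erythropoietin pathway genes (median −0.26) Jak2, the kinase bound to its receptor, was past 2-fold lower at 38.7 and 14.7 CPM. The 8 cell-cycle exit genes had a median of −0.064 (0.14 when centred), with Rb1 past 2-fold lower (40.2 to 17.5 CPM).

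Cell-cycle lists were close to the median tested gene. The 21 tested S phase genes had a median of −0.20 and the 27 G2/M genes −0.19, and centred on the median of all tested genes both turned, to 0.0039 and 0.015. Summed, S phase went from 2748 to 2278 CPM and G2/M from 6833 to 5304 CPM. Of the 21 S phase genes 1 was past 2-fold lower, Mcm4 (77.5 to 29.2 CPM), and of the 27 G2/M genes 3, where 8.64% of all tested genes were. In G2/M these were Mki67, Cenpe (192 to 83.9 CPM) and Kif11 (126 to 54.5 CPM), while Ube2c, which marks proteins for destruction in mitosis, was at 590 and 751 CPM and Cks2 at 567 and 617 CPM.

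Most of these 2-fold calls were lost under another setting. With the length trend taken out, Ireb2, Klf3, Hk1, Jak2, Rb1, Yod1, Cenpe and Kif11 had log2 ratios of −0.78 (Hk1) to −0.46 (Cenpe), and with the median also taken out Mcm4 had −0.93 and Mki67 −0.97. Tfrc, Alad and Rnf10 kept their calls in all alternatives run on them.

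The remaining lists held few genes past 2-fold, where 0.465% of all tested genes were higher and 8.64% lower. The 9 redox genes (median −0.032, 0.18 when centred) and the 10 chromatin protein genes (median −0.12, 0.093 when centred) had 0 in either direction. The 8 tested of 14 immediate-early and heat-shock genes had a median of 0.44, which was 0.050 with no filter on low values, while the list summed to 1653 and 1562 CPM. Of them Fos, an early response gene, was past 2-fold higher at 19.1 and 45.4 CPM, with 235 and 126 CPM in low-globin cells, and it lost the call in 3 alternatives, with a log2 ratio of 0.51 to 0.92. Of the 12 cardiomyocyte markers (median 0.23) Nppa and Myl2 (483 to 1007 CPM) were past 2-fold higher and Ttn and Myh6 (68.7 to 16.1 CPM) lower. Myl2 lost its call in 4 of 14 alternatives, among them the length trend taken out (0.79). Its lowest log2 ratio was 0.72, under the filter on 1500 genes and 5% mitochondrial UMIs. Ttn lost its call at 30% globin or more (−0.91). In low-globin cells these 12 had a median of 0.38. The 86 tested ribosomal protein genes had a median of 0.044 with 1 past 2-fold, Rpl29.

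**Figure D5:**
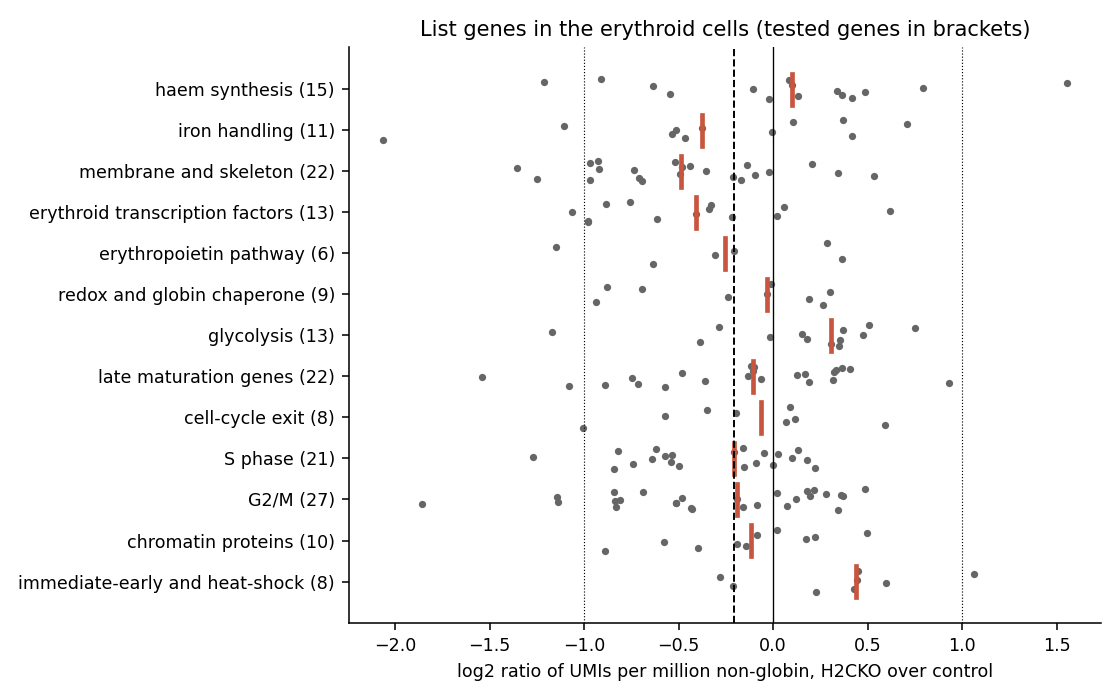
Log2 ratio of H2CKO over control for each tested gene of the lists, with list medians as orange-red ticks, the median of all tested genes (−0.21) dashed and 2-fold dotted. Membrane genes have the lowest median (−0.49), followed by transcription factors (−0.41) and iron genes (−0.38), and glycolysis has 0.30.

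The alleles of the cross left a low trace in these cells. Hand2 (ENSMUSG00000038193), the deleted transcription factor, had 8.53 CPM in control and 5.43 CPM in H2CKO erythroid cells, against 118 and 69.7 CPM in low-globin cells. A UMI of it was found in 5.46 and 2.28% of erythroid cells and in 70.1 and 52.8% of low-globin cells. A 3′ assay can still count a deleted allele's end, so this is no check of the deletion. Tomato had 3.87 CPM (69 UMIs) and 1.36 CPM (30 UMIs) in erythroid cells.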

How the data were processed

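Droplet 3′ single-cell RNA libraries were made from dissociated hearts, 1 library per genotype. Both libraries are recorded with 3 hours on ice. The authors deposited UMI counts per gene and barcode, not normalised, and embedding coordinates for a subset of barcodes, which are a score without a unit. Per the submitters' processing notes, Cell Ranger 5.0.1, Seurat 4 and GRCm38.p6 were used. How barcodes were called is not given in the sources used here. Symbols were found for 22285 of the 22401 features, and positions, spans and transcript lengths came from GENCODE on GRCm38.

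The erythroid cells and all gene lists were chosen with earlier results of these data known. Counts were summed over erythroid cells and divided by their non-globin UMIs. Log2 ratios were taken after adding 5 to both CPM. A gene was tested when its higher library had at least 20 CPM and 20 UMIs, and 2-fold was the size rule. The trend with globin share used the same rule within each library. Intervals are exact Poisson for levels, Clopper-Pearson for shares, exact conditional for ratios of counts, and Newcombe for differences of shares. With 1 library per group no test was run. Where a share of cells with a UMI is given, low-globin cells stand beside it as the background.

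Genes were named by rule: the 15 most abundant non-globin genes, the 8 highest and 8 lowest ratios at 50 CPM or more, in each list its 3 most abundant genes and those past 2-fold (at most 4 per direction), 6 genes each way along globin share (50 CPM or more in the higher group of each library), and a fixed set of erythroid, cell-cycle and reporter genes. Of these, those with a value that bears on the text are printed, and some are not reported here. Doublets were scored with Scrublet (scanpy 1.11.5), whose automatic limit marked 964 control and 0 H2CKO cells and so had not worked in H2CKO. Doublets were therefore kept, and leaving out the highest 5% of scores was an alternative. Python 3.11.15, numpy 2.4.6, scipy 1.17.1, pandas 2.3.3 and matplotlib 3.10.9 were used, and the calculations were tested on simulated data. Promoter sequences are from RefSeq, GRCm38.p6.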

Additional observations from a re-analysis of the deposited data

Results flagged for a closer look

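GFP, the reporter made after Cre has acted, was found in erythroid cells of H2CKO above the level of the control, which carries no Cre. It had 19.3 CPM (17.5 to 21.2; 426 UMIs in 270 cells) in H2CKO and 1.51 CPM (0.998 to 2.20; 27 UMIs in 27 cells) in the control. A UMI was found in 5.30% and 0.989% of erythroid cells, and in 26.3 and 17.6% of low-globin cells, where the levels were 214 and 12.1 CPM. In H2CKO 14 erythroid cells held at least 5 GFP UMIs, up to 19 in 1 cell, and together 24.6% of the GFP UMIs. Their median globin share was 67.5%. At least 5 endothelial marker UMIs were found in 1 of the 14, against 0.118% of the other H2CKO erythroid cells, and at least 5 mesenchymal marker UMIs in 2. Without them GFP was at 14.6 CPM. The part of free RNA or of joined cells in this signal was not tested.

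A second signal lay outside the cells described. Barcodes with at least 50% globin but under 500 genes numbered 147 in H2CKO and 8 in the control, or 2.81 and 0.292% of globin-rich barcodes. Their median depth was 2672 and 3018 UMIs, and their median globin share 71.5 and 69.3%. In H2CKO they had 1272 CPM of S phase, 2987 CPM of G2/M and 8000 CPM of late maturation genes, against 2278, 5304 and 7084 CPM in the H2CKO cells that passed. Their part in the difference between libraries was not tested.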

How the results depend on the processing

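The share of erythroid cells was higher in H2CKO under every alternative run, by 11.7 points at 70% globin or more, 5.61 under the filter on 1500 genes and 5% mitochondrial UMIs, 19.0 with at least 200 genes and 18.3 over all barcodes, and within counting error of the reported 14.2 at 30% globin and without the highest doublet scores. Genes higher and lower in H2CKO numbered 6 and 149 scaled to all UMIs, 31 and 153 centred on the median gene, 8 and 86 at 100 CPM or more, and 44 and 30 with length trend and median taken out. The count of genes lower in H2CKO alone moved to 580 with a pseudocount of 1 and to 66 with the length trend taken out. The median of the S phase list turned to 0.0039 when centred and 0.037 at 70% globin or more. The median of the G2/M list turned to 0.015 when centred, 0.020 at 100 CPM or more, 0.014 at 70% globin or more, 0.064 under the filter on 1500 genes, and 0.084 with length trend and median taken out. The difference in cells with at least 5 cell-cycle UMIs, set down as cycling cells, turned to 5.44 points at 70% globin or more and 6.89 under the filter on 1500 genes, and was −6.25 without Mki67. Along globin share, genes at least 2-fold higher and lower in both libraries numbered 0 and 260 scaled to all UMIs, 10 and 22 at 100 CPM or more, 1 and 6 from the 60 to 70% group, and 14 and 36 under the filter on 1500 genes. Of the values for named genes and other lists under the alternatives, 1464 stayed on their side of 2-fold, 53 lost the 2-fold call, 7 gained it and 0 called values changed sign; uncalled values near 0, such as Alas2 (4 of 14 alternatives), did change sign. The causes were not tested. No paired analysis was possible because each group has 1 library, and no replicate could be left out. Taking only barcodes with embedding coordinates gave no value, since 0 erythroid cells have them. The alternatives on length, on the trend with globin share, on all barcodes and on Mki67 were chosen after seeing the data. Depth limits the low genes most, with medians of 6192 and 4143 non-globin UMIs per cell.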
